A study of Mus musculus with 9 samples.

Results

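The hippocampus of operated mice that had received Maresin 1 was compared with the hippocampus of operated mice that had not. The comparison rests on 6 of the 9 arrays of the series, chosen by title alone: 3 arrays titled surgery with Maresin 1 and 3 titled surgery. All mice were C57BL/6 and 12 to 14 weeks old. In both groups the tibia was fractured by orthopedic surgery and the hippocampus was taken 72 h later. The groups differed in Maresin 1, which had been given before the operation. The remaining 3 arrays came from control mice, for which the labels name neither an operation nor Maresin 1. They entered the estimate of the spread and gave a level to set beside the operated mice. The sources used here do not give the dose, route and vehicle of Maresin 1, the anaesthesia or the sex of the mice. Each array took 6 µg of total RNA from a whole tissue, and the titles call the 3 arrays of a group biological replicates. Whether an array held RNA of a single mouse is not stated.

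Maresin 1 is made from the omega-3 fatty acid docosahexaenoic acid, mainly by macrophages, through a lipoxygenase step. It belongs to the specialised pro-resolving mediators, which slow the entry of neutrophils and speed the clearance of dead cells by phagocytes. Lgr6 on the cell surface and the nuclear receptor Rora have been described as its receptors. Fracture of a limb bone raises circulating cytokines, and in mice such surgery is used to model the memory disturbance that can follow operations in older people, with the hippocampus as the structure of interest. The series title names the question, which is whether Maresin 1 reduces inflammation of the nervous system in this model.

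Levels below are log2(signal + 16) after quantile normalization of all 9 arrays, and a difference is the mean level with Maresin 1 minus the mean level after surgery alone, with its standard error (SE). Signals of 18820 genes were compared. The median deposited signal was 54.1, 83.2 and 85.0 in the surgery arrays and 78.1, 69.0 and 88.7 in the Maresin 1 arrays. As a guide to background, 95% of 979 olfactory receptor genes had a mean level under 5.87, and 70.8% of all genes lay above that level. Markers of the labelled tissue were present: all 18 measured markers of dentate granule cells, all 13 of CA1 pyramidal cells and 15 of 16 of CA3 and CA2 lay above the olfactory receptor level. Array profiles correlated at 0.991 to 0.997 across genes, and no pair held identical values. Control replicates 2 and 3 stood apart through transcripts of the choroid plexus, and the operated arrays did not share this: summed signals of that list were 2845 to 2943 after surgery, 2919 to 3173 with Maresin 1, and 2541, 21358 and 26544 in the controls.

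Differences between the groups were small. No gene passed a Benjamini-Hochberg adjusted p under 0.05 in limma (0% of 18820 genes, smallest adjusted p = 0.617), and therefore no gene described below is called changed. The median SE of a difference was 0.09, and 93.4% of genes differed by less than 0.2 on the log2 scale. In simulated data of the same size, 200 genes were given a log2 change, 50 each at 0.3, 0.5, 1 and 2. Noise was drawn independently for each gene. The test called 16% of those at 0.3, 74% at 0.5 and 98% at 1. The adjusted cutoff depends on how many genes change, so these shares do not give the chance of a call in the real arrays. At an unadjusted p under 0.05 there were 1065 genes (5.66%), against 941 expected by chance, with 368 higher (1.96%) and 697 lower (3.7%) with Maresin 1. Without replicate 1 of the Maresin 1 group these counts were 1652, 593 and 1059. All 3 arrays of a group lay beyond all 3 of the other for 902 genes on the higher side (4.79%) and 1544 on the lower side (8.2%). Of the genes at an unadjusted p under 0.05, 34.6% were higher with Maresin 1, but that share was 14.9% when arrays were scaled to a common median and 82% without any normalization. The split between higher and lower genes thus depended on the normalization, and lists below are read against the median of all genes, -0.02, and against the 41.7% of genes above 0 and the 58.3% below it. Where leaving out 1 array moved a list median by over 1.5 times, the value without it is given, except for some medians within 0.05 of zero. Genes named beyond the rule given with the processing were picked after their values had been seen.

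**Figure D1:**
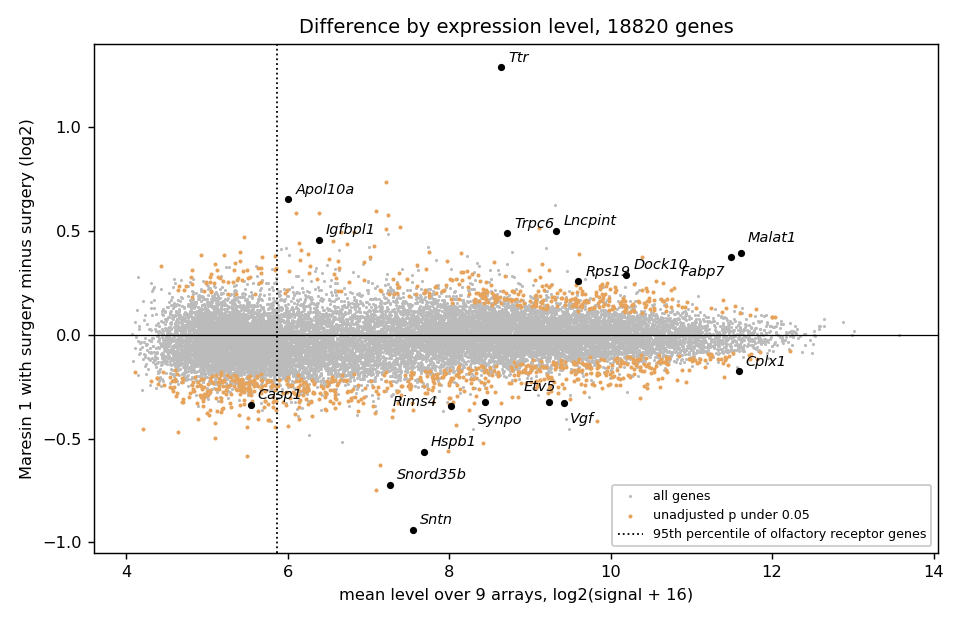
Log2 difference between Maresin 1 with surgery and surgery (vertical axis) against the mean log2 level over 9 arrays (horizontal axis) for 18820 genes, grey, with genes at an unadjusted p under 0.05 in orange and genes described in the text in black. Nearly all points lie within 0.2 of the zero line, and Ttr at 1.29 is the only gene beyond 1.

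Several genes of synapses and of neuronal activity stood lower with Maresin 1. Synpo encodes synaptopodin, an actin-binding protein of the spine apparatus in dendritic spines. Its log2 levels were 8.58, 8.54 and 8.55 after surgery and 8.29, 8.17 and 8.21 with Maresin 1, with controls at 8.56, 8.57 and 8.49. The Maresin 1 arrays thus lay below all 6 others, 1.25-fold under the surgery arrays (difference -0.33, SE 0.06, adjusted p = 0.617). Vgf, the precursor of secreted peptides that neurons make after activity and neurotrophin signals, had log2 levels of 9.48, 9.49 and 9.53 after surgery and of 9.08, 9.31 and 9.13 with Maresin 1. Here too the groups did not overlap (difference -0.33, SE 0.08, adjusted p = 0.859), and the controls, at 9.80, 9.48 and 9.54, stood with the surgery arrays. Pim1, a kinase gene induced by activity and cytokines, differed by -0.31 without overlap, but its control levels of 6.21, 6.40 and 6.40 lay near those with Maresin 1.

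The machinery of transmitter release showed the same direction. Cplx1 encodes complexin 1, which holds primed vesicles ready for calcium. It had log2 levels of 11.66, 11.65 and 11.61 after surgery and 11.46, 11.49 and 11.44 with Maresin 1 (difference -0.17, SE 0.04). The spread within each group was smaller than the gap between them, and controls stood with surgery at 11.70, 11.64 and 11.63. Rims4, a small member of the active zone family of Rim proteins, stood at log2 levels of 8.08, 8.18 and 8.08 after surgery and 8.01, 7.63 and 7.68 with Maresin 1. Its difference of -0.34 (SE 0.10) came mainly from replicates 2 and 3. Stx1a encodes syntaxin 1A, a SNARE of the plasma membrane, with log2 levels of 9.22, 9.15 and 9.19 after surgery and 9.06, 8.88 and 8.89 with Maresin 1 (difference -0.25, SE 0.07). In the presynaptic list, 26 of 41 measured genes were lower, 14 of them without overlap (34.1%, against 8.2% of all genes). Higher without overlap were 2 (4.88%, near the 4.79% of all genes). At an unadjusted p under 0.05, 7 were lower (3.7% of all genes were) and 0 higher, and 0 passed the adjusted threshold. Those 7 lower genes were Rims4, Stx1a, Cplx1, the vesicle SNARE Vamp1 (-0.17), the active zone scaffold Bsn (-0.14), synaptophysin Syp (-0.12) and the vesicular glutamate transporter Slc17a7 (-0.08). The median of the list was only -0.04 (-0.21 with arrays scaled to a common median, where all genes stood at -0.09). Syt1, the calcium sensor of release, stood at -0.03, the vesicle priming gene Unc13a at 0.01, the active zone gene Rims1 at 0.02 and the SNARE disassembly enzyme Nsf at 0.04.

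Postsynaptic scaffold and spine genes were lower for 20 of 27, with a median of -0.03 (-0.21 with arrays scaled to a common median), near the -0.02 of all genes. Only 2 were lower without overlap (7.41%, near the 8.2% of all genes) and 0 higher. Behind Synpo followed Dlgap4, a scaffold partner of PSD-95, at -0.19 without overlap, and Dlgap3 at -0.17 and Shank3 at -0.18 with overlap. PSD-95 itself, Dlg4, stood at -0.01 and the kinase Camk2a at -0.00. Voltage-gated potassium channel genes lay below zero for all 18 members, at -0.28 to -0.01 and a median of -0.05. A single member, Kcnd1 of the A-type current, had an unadjusted p under 0.05, with log2 levels of 7.61, 7.46 and 7.50 after surgery and 7.37, 7.31 and 7.15 with Maresin 1. Cacna1i, a low-threshold calcium channel pore, differed by -0.24 (SE 0.06) without overlap, from 9.41, 9.49 and 9.44 to 9.30, 9.21 and 9.13. The other 8 calcium channel pores lay between -0.14 and 0.05.

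Receptors for the main transmitters held members on both sides. Glutamate receptor genes had a median of -0.02, equal to that of all genes, with 17 of 26 below zero, and -0.18 with arrays scaled to a common median. Grik2, a kainate receptor subunit, stood higher with Maresin 1, at log2 levels of 9.96, 10.15 and 10.21 against 9.85, 9.80 and 9.91 (difference 0.25, SE 0.07). The groups did not overlap for Grik2, whereas the AMPA receptor subunit Gria1 differed by 0.09 with overlap, a difference whose sign turned to -0.12 with arrays scaled to a common median and -0.02 without normalization. Cacng2, the auxiliary subunit stargazin that carries AMPA receptors to the synapse, differed by -0.12 without overlap. Of 11 GABA-A receptor genes 8 lay above zero, at a median of 0.02 that turned to -0.12 and -0.01 under those same settings. Gabra4, a subunit of extrasynaptic receptors, had the only unadjusted p under 0.05 of them (difference 0.17, SE 0.05, without overlap, but -0.01 with arrays scaled to a common median).

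**Figure D2:**
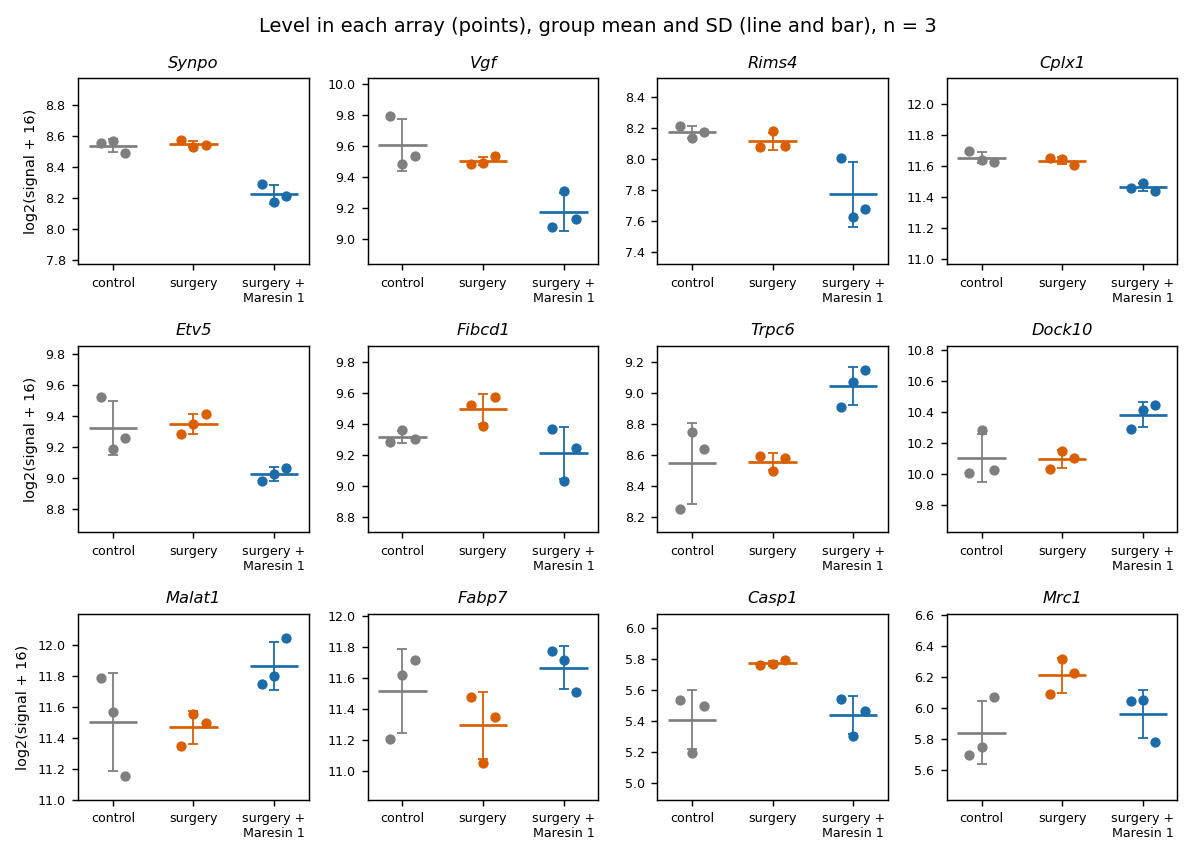
Log2 level (vertical axis, log2(signal + 16)) of 12 genes in each array, with group mean (line) and SD (bar), n = 3, in control, surgery and surgery with Maresin 1. The Maresin 1 arrays of Synpo, Vgf, Cplx1 and Etv5 lie below all other arrays, those of Trpc6 and Dock10 above them, while for Casp1 and Malat1 the control arrays reach into the range of the Maresin 1 arrays.

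Genes induced by neuronal firing were also examined. The immediate early gene list had 12 of 22 members above zero and a median of 0.03, and none of them had an unadjusted p under 0.05. With arrays scaled to a common median the list median turned to -0.05, where all genes stood at -0.09. The median was -0.07 and 0.16 with surgery replicate 2 or 3 left out, and -0.05 and 0.14 with Maresin 1 replicate 1 or 3 left out. Fos ranged widely, at log2 levels of 6.85, 6.83 and 7.52 after surgery, 8.0, 7.58 and 7.08 with Maresin 1 and 7.64, 7.11 and 6.57 in controls. Its difference of 0.49 (SE 0.27) lay within that range. Egr2 behaved alike, at 0.37 (SE 0.37), and Arc, at -0.14 (SE 0.19), also overlapped. Bdnf, the neurotrophin induced by activity, differed by -0.00 (SE 0.10). List scores, the median deviation of members from the mean of the 9 arrays, were -0.100, -0.098 and 0.269 after surgery and 0.3, 0.009 and -0.121 with Maresin 1, so that the spread inside each group exceeded the gap. Genes of the later activity response were lower for 16 of 26, with 5 lower without overlap (19.2%, against 8.2% of all genes) and 0 higher. Beside Synpo, Vgf and Pim1 these were the neurite growth inhibitor Lingo1 (-0.18) and the prostaglandin synthase Ptgs2 (-0.10).

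The list of feedback genes of fibroblast growth factor and ERK signalling also holds ligands, receptors and target genes of the pathway. Its members were lower for 21 of 26 with a median of -0.07 (-0.23 with arrays scaled to a common median). Of the 26, 5 were lower without overlap (19.2%, against 8.2% of all genes) and 0 higher. Etv5, an ETS transcription factor induced by this pathway, had log2 levels of 9.29, 9.35 and 9.41 after surgery and 8.98, 9.03 and 9.07 with Maresin 1. All 3 Maresin 1 arrays lay below the 3 surgery arrays (difference -0.33, SE 0.08, adjusted p = 0.859) and below the controls at 9.53, 9.19 and 9.26. Its relative Etv4 differed by -0.28 with a slight overlap. Spry4, an inhibitor of receptor tyrosine kinase signalling, stood at log2 levels of 8.30, 8.23 and 8.52 after surgery and 8.14, 8.16 and 8.12 with Maresin 1 (difference -0.21, SE 0.10). Dusp6, a phosphatase that switches ERK off, differed by only -0.02 and Spry1 by 0.06. List scores were 0.020, 0.010 and 0.073 after surgery and -0.027, -0.046 and -0.059 with Maresin 1, without overlap.

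Markers of the neuron types of the hippocampus stood apart in opposite directions. In a whole tissue, fewer cells of a type and less RNA per cell cannot be told apart, and this holds for every cell type below. Dentate granule cell genes were higher with Maresin 1 for 16 of 18, with a median of 0.18, which shrank to 0.04 with arrays scaled to a common median. Of them 8 were higher without overlap (44.4%, against 4.79% of all genes) and 0 lower. At an unadjusted p under 0.05, 5 were higher (1.96% of all genes were) and 0 lower. Trpc6, a calcium-permeable cation channel of granule cells, had log2 levels of 8.59, 8.49 and 8.58 after surgery and 8.91, 9.07 and 9.15 with Maresin 1. The Maresin 1 arrays lay above all others, 1.4-fold over surgery (difference 0.49, SE 0.11, adjusted p = 0.859), with controls at 8.25, 8.75 and 8.64. Dock10 stood at 10.03, 10.15 and 10.10 after surgery and 10.29, 10.41 and 10.44 with Maresin 1 (difference 0.29, SE 0.07). Prox1, the transcription factor that fixes granule cell identity, stood at 9.70, 9.80 and 9.76 and at 9.94, 10.12 and 9.90 (difference 0.24, SE 0.08). C1ql2, a synaptic protein of mossy fibres, differed by 0.25 and Glp1r, the receptor for glucagon-like peptide 1, by 0.51 with overlap.

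CA1 pyramidal cell genes were lower for 11 of 13, with a median of -0.11 (-0.27 with arrays scaled to a common median, where all genes stood at -0.09), and 4 were lower without overlap (30.8%, against 8.2%). Fibcd1, an acetyl-group-binding receptor used as a CA1 marker, had log2 levels of 9.53, 9.39 and 9.58 after surgery and 9.37, 9.03 and 9.25 with Maresin 1 (difference -0.28, SE 0.08). Its controls, at 9.28, 9.36 and 9.31, lay below the surgery arrays, within the range with Maresin 1. Mpped1 stood at 10.88, 10.95 and 10.93 after surgery and 10.86, 10.58 and 10.67 with Maresin 1 (difference -0.22, SE 0.07), and the others were Lefty1 (-0.27) and Ccn3 (-0.25). Wfs1, the endoplasmic reticulum protein often used to outline CA1, differed by only -0.05. CA3 and CA2 genes had a median of -0.01, with 9 of 16 below zero, and interneuron genes likewise had -0.01, with 13 of 22 below zero. Markers of tissue next to the hippocampus also stood lower: genes of deep cortex, subiculum and thalamus were lower for 14 of 19, with a median of -0.12 (-0.21 with arrays scaled to a common median) and 4 lower without overlap (21.1%, against 8.2% of all genes), though the median was -0.05 without replicate 2 and -0.07 without replicate 3 of the Maresin 1 group and -0.19 without replicate 1. Lower members were the deep-layer transcription factors Tbr1 and Fezf2, both at -0.18, and the vesicular glutamate transporter Slc17a6, abundant in thalamus, at -0.24 (SE 0.23). Nxph4, at -0.41, lay under the olfactory receptor level.

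List scores of dentate granule cells were -0.038, -0.036 and -0.051 after surgery and 0.027, 0.192 and 0.082 with Maresin 1, without overlap. Controls, at -0.197, 0.067 and -0.014, covered a wider range than the gap between the operated groups. Scores of CA1 were 0.039, 0.028 and 0.102 after surgery against -0.037, -0.170 and -0.037, again without overlap. The Maresin 1 array with the highest dentate score, replicate 2, had the lowest CA1 score. For deep cortex, subiculum and thalamus the scores were 0.037, 0.117 and 0.076 against 0.019, -0.043 and -0.109. Summed normalized signals had the same order, at 14851 to 14873 after surgery and 15785 to 17415 with Maresin 1 for the dentate list, and at 16516 to 17462 and 15155 to 16172 for the CA1 list. Several of the synaptic and activity genes above differ between hippocampal fields, and the part of these marker values in their differences was not tested.

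**Figure D3:**
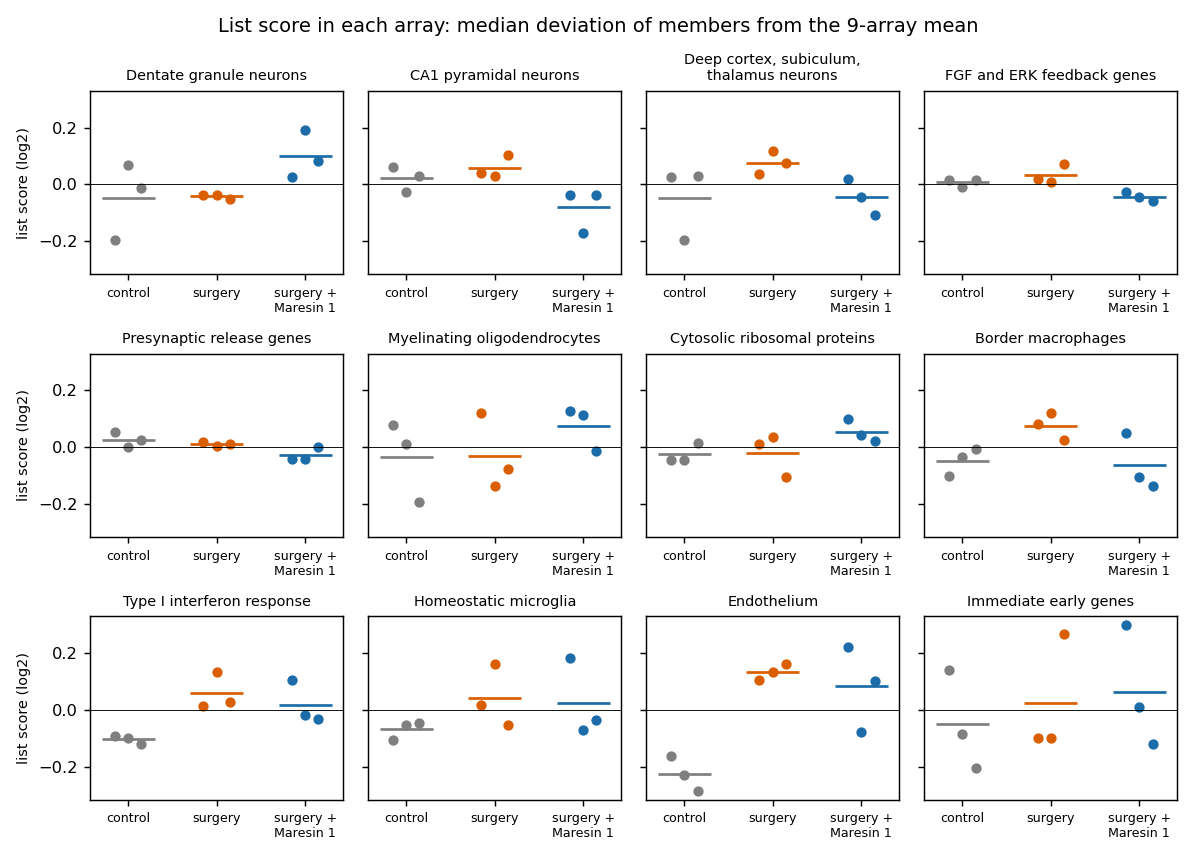
List score (vertical axis, log2 units, the median deviation of list members from the 9-array mean) in each array for 12 gene lists, with group means as lines, n = 3. Scores of dentate granule cells (higher), CA1 pyramidal cells, FGF and ERK feedback genes and presynaptic genes (lower) do not overlap between the operated groups, whereas those of microglia and immediate early genes do. Presynaptic scores nearly touch, at 0.005 to 0.018 after surgery and -0.041 to 0.001 with Maresin 1.

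Glial markers leaned towards higher values with Maresin 1 in the oligodendrocyte lineage. Myelinating oligodendrocyte genes were above zero for 15 of 17, with a median of 0.11 that turned to -0.05 with arrays scaled to a common median, where all genes stood at -0.09. It was 0.20 without surgery replicate 1 and 0.05 without surgery replicate 2. No member was without overlap, against 13% of all genes in either direction. Opalin, a membrane protein of myelinating cells, had log2 levels of 9.27, 8.77 and 8.87 after surgery and 9.45, 9.28 and 9.21 with Maresin 1 (difference 0.34, SE 0.11). Surgery replicate 1 reached the Maresin 1 range, and its list score of 0.12, against -0.137 and -0.078 in the other surgery arrays, matched the 0.128 and 0.112 of Maresin 1 replicates 1 and 2. Aspa, the enzyme that degrades N-acetylaspartate, differed by 0.22 and Ugt8a, the enzyme of galactolipid synthesis, by 0.19, both with overlap. Oligodendrocyte precursor genes were above zero for 13 of 16 at a median of 0.05, which likewise turned to -0.07 under that scaling and was 0.01 without Maresin 1 replicate 1 and 0.02 without surgery replicate 2.

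Astrocyte genes had a median of -0.00, with 8 of 17 above zero, and Slc1a2 and Slc1a3, their glutamate transporters, stood at 0.01 and -0.00. Fabp7, whose product carries docosahexaenoic acid and other fatty acids inside astrocytes and neural stem cells, was the exception, at log2 levels of 11.48, 11.05 and 11.35 after surgery and 11.77, 11.72 and 11.51 with Maresin 1. The groups did not overlap (difference 0.37, SE 0.13, adjusted p = 0.859), and the controls, at 11.21, 11.62 and 11.72, spanned both. Igfbpl1, a marker of newborn neurons, stood at 6.15, 6.48 and 6.17 after surgery and 6.62, 6.92 and 6.64 with Maresin 1 (difference 0.46, SE 0.12). Dcx, which labels migrating neuroblasts, differed by 0.12 without overlap. The neurogenesis list as a whole had 11 of 18 genes below zero and a median of -0.05 (-0.14 without Maresin 1 replicate 1 and 0.06 without replicate 3), with the intermediate progenitor factor Eomes at -0.32 (SE 0.27) and the proliferation marker Mki67 at 0.07.

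Inflammatory genes, which the series title points to, had small list medians, with some members lower without overlap. Of 30 cytokine and chemokine genes 13 lay above the olfactory receptor level. Il6, Il1b and Tnf, the cytokines most often measured after such surgery, lay below it, at differences of -0.22 (SE 0.10), -0.08 (SE 0.11) and -0.07 (SE 0.13). Il6 stood at log2 levels of 4.93, 4.61 and 4.62 after surgery and 4.50, 4.40 and 4.60 with Maresin 1, a range in which the olfactory receptor genes lie. The monocyte attractant Ccl2 differed by -0.03 (SE 0.14). Tgfb1, a cytokine of microglia and macrophages above the background level, stood at 7.34, 7.45 and 7.42 after surgery and 7.37, 6.97 and 7.11 with Maresin 1 (difference -0.26, SE 0.12, with overlap). The list was lower for 19 of 30, at a median of -0.06 that became 0.01 without normalization and -0.02 without surgery replicate 1. Of the 30, 4 were lower without overlap (13.3%, against 8.2% of all genes) and 1 higher (3.33%, against 4.79%).

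Toll receptor, inflammasome and NF-kB genes were lower for 22 of 35, with a median of -0.03, again 0.01 without normalization. Of the 35, 6 were lower without overlap (17.1%, against 8.2% of all genes) and 1 higher (2.86%, against 4.79%), and 23 lay above the olfactory receptor level. Casp1, the protease of the inflammasome, had log2 levels of 5.76, 5.77 and 5.79 after surgery, 5.54, 5.30 and 5.47 with Maresin 1 and 5.54, 5.19 and 5.50 in controls. Maresin 1 and control arrays shared a range below the surgery arrays (difference -0.34, SE 0.11, adjusted p = 0.859). Surgery and control differed by 0.36 for this gene, a comparison that uses the same surgery arrays, and its mean lay below the olfactory receptor level. Tlr2, a receptor for bacterial lipopeptides, stood at 5.88, 5.96 and 5.80, then 5.68, 5.66 and 5.57 with Maresin 1 (difference -0.24, SE 0.10), near the same level. Above it lay Tnip1, a restraint on NF-kB, at -0.21 and the NF-kB subunit Relb at -0.23, both without overlap. Nlrp3, the sensor of the inflammasome, differed by 0.01 and the NF-kB inhibitor Nfkbia by 0.08, with overlap.

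Type I interferon response genes were lower for 26 of 32, with a median of -0.08 (all genes -0.02). Yet only Bst2 was lower without overlap (3.12%, against 8.2% of all genes), and 1 member was higher (3.12%, against 4.79%). None had an unadjusted p under 0.05, against 5.66% of all genes. Ifit1 differed by -0.29 (SE 0.14) and Ifit3 by -0.18 (SE 0.10), with log2 levels of Ifit3 at 7.72, 7.75 and 7.62 after surgery, 7.68, 7.33 and 7.54 with Maresin 1 and 7.09, 7.29 and 7.25 in controls. Maresin 1 replicate 1 stayed at the surgery level, and list scores showed the same array apart, at 0.107 against -0.018 and -0.033. Without it the median of the list was -0.13, without surgery replicate 2 it was -0.00 and without Maresin 1 replicate 2 -0.05. Complement genes were lower for 15 of 19, at a median of -0.06 (-0.01 without surgery replicate 2, -0.12 without Maresin 1 replicate 1, -0.11 without surgery replicate 1 or 3, -0.03 without Maresin 1 replicate 3), with C5ar1, the receptor for the fragment C5a, at -0.29 and C2 at -0.20, both below the olfactory receptor level. Of the 19, 5 were lower without overlap (26.3%, against 8.2% of all genes) and 1 higher (5.26%, against 4.79%), and 12 lay above the olfactory receptor level. Cd46, listed here among the complement regulators, was higher without overlap (0.33, SE 0.15), and its controls, at 6.62, 6.39 and 5.95, reached both groups.

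Microglial genes stood near the median of all genes. Homeostatic genes had a median of -0.03 and 0 of 19 without overlap, against 13% of all genes in either direction. Their list scores were 0.016, 0.161 and -0.052 after surgery and 0.183, -0.072 and -0.035 with Maresin 1. Aif1, the marker stained as Iba1, differed by -0.16 (SE 0.10), Itgam by -0.05 (SE 0.09) and Trem2 by 0.08 (SE 0.09). Genes of activated microglia had a median of -0.03, with the lysosomal marker Cd68 at -0.10 and the tetraspanin Cd9 at 0.23. Reactive astrocyte genes were lower for 23 of 29 at a median of -0.10, with 21 of the 29 above the olfactory receptor level. Of the 29, 4 were lower without overlap (13.8%, against 8.2% of all genes) and 0 higher. Hspb1, a small heat shock protein of reactive astrocytes and vessels, led them at 7.67, 7.62 and 8.49 after surgery and 7.38, 7.50 and 7.22 with Maresin 1. Surgery replicate 3 set much of its difference of -0.56 (SE 0.23), and the controls held an equally high array, at 8.26. Gfap, the filament protein of astrocytes, differed by 0.09 (SE 0.07), a sign that turned to -0.07 with arrays scaled to a common median. Lcn2, an acute phase protein, ranged from 5.48 to 9.40 within the surgery group alone.

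Macrophages at the borders of the brain gave lower values. Of 16 genes of border macrophages, which line meninges and vessels, 15 were lower, with a median of -0.14, 4 without overlap (25%, against 8.2% of all genes) and 5 of the 16 above the olfactory receptor level. Cbr2, a carbonyl reductase of these cells, stood at log2 levels of 6.53, 6.32 and 6.32 after surgery and 6.18, 5.92 and 5.86 with Maresin 1, with controls at 5.98, 5.90 and 6.28 (difference -0.41, SE 0.12). Mrc1, the mannose receptor CD206, stood at 6.09, 6.32 and 6.23 and at 6.05, 6.05 and 5.78 (difference -0.25, SE 0.12). Controls of both genes reached down to the Maresin 1 levels, and surgery stood above control by 0.34 and 0.37 with the same surgery arrays. Folr2 (-0.27) and Clec10a (-0.21) were the other members without overlap, and both lay in the background range, as did Pf4 (-0.08) and Cd163 (-0.05). List scores were 0.080, 0.121 and 0.025 after surgery and 0.051, -0.104 and -0.137 with Maresin 1, so that replicate 1 stood with the surgery arrays, and the median of the list was -0.24 without it and -0.08 without surgery replicate 2.

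Medians of fibroblast and blood cell lists were also below that of all genes, -0.02, while those of choroid plexus (-0.01) and ependyma (0.05) were not. Meningeal and vascular fibroblast genes had a median of -0.12, 16 of 24 lower (-0.02 without Maresin 1 replicate 3 and -0.08 without replicate 2), with the collagen-binding Fmod at -0.51 (SE 0.26) and the collagen chain Col1a2 at -0.32 (SE 0.16). Of the 24, 2 were lower without overlap (8.33%, near the 8.2% of all genes), 0 higher, and 0 had an unadjusted p under 0.05. Fmod ranged from 5.82 to 7.31 in the controls, wider than the gap between operated groups, and this control spread enters its SE. Summed normalized signals of the fibroblast list were 5072 to 5663 after surgery and 4403 to 5879 with Maresin 1, and those of border macrophages 1153 to 1283 and 1022 to 1177. Genes of red cells and neutrophils, of which 3 of 16 lay above the olfactory receptor level, had a median of -0.12 (-0.06 without Maresin 1 replicate 2 and -0.07 without surgery replicate 3), with the red cell anion exchanger Slc4a1 at -0.27, and lymphocyte genes, 2 of 13 above it, had -0.07, which became 0.02 without normalization, and which stood at -0.02 and -0.11 with replicate 1 or 3 of the surgery group left out and at -0.05 with replicate 3 of the Maresin 1 group left out. How much meningeal or blood tissue each hippocampus carried, and its part in these values, was not tested. Dim genes leaned lower in general. With all genes cut into 10 bins by mean level, medians were -0.04, -0.04, -0.05 and -0.05 in bins 1 to 4, the dimmest. Most border macrophage, blood cell and lymphocyte genes were not above the olfactory receptor level. The part of this trend in their medians was not tested.

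Vessel genes were examined as separate lists. The endothelial identity list had a median of -0.00, with 8 of 17 above zero, and the tight junction gene Cldn5 stood at 0.10 and the glucose transporter Slc2a1 at 0.00. Erg, a transcription factor of endothelium, was the member set apart, at log2 levels of 6.55, 6.54 and 6.44 after surgery and 6.40, 6.07 and 6.12 with Maresin 1 (difference -0.32, SE 0.11). Genes of endothelial activation were lower for 12 of 13, with a median of -0.18, of which 3 were without overlap (23.1%, against 8.2% of all genes) and 9 of the 13 above the olfactory receptor level. Ackr1, a chemokine-binding receptor of venules, stood at 9.53, 9.52 and 9.45 after surgery and 9.13, 9.32 and 9.41 with Maresin 1 (difference -0.21, SE 0.08), while controls, at 9.62, 9.65 and 9.42, stood with surgery. The adhesion molecule Icam1 differed by -0.26 and the clotting factor carrier Vwf by -0.28, both highest in surgery replicate 2 and with overlap, and Vcam1 differed by -0.01. Without surgery replicate 2 the median of this list was -0.05. Pericyte and smooth muscle genes were lower for 14 of 15, with a median of -0.10 (-0.06 without Maresin 1 replicate 2), and the aminopeptidase Anpep of pericytes differed by -0.31 (SE 0.14).

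**Figure D4:**
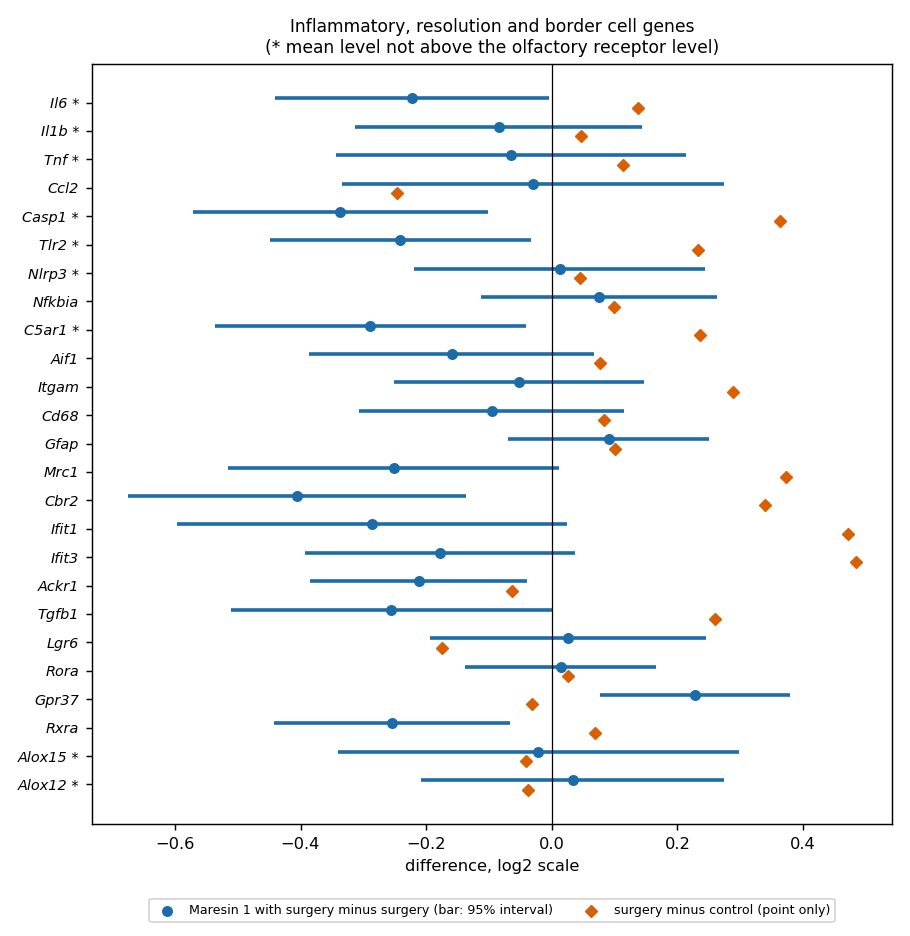
Log2 difference (horizontal axis) of inflammatory, resolution and border cell genes between Maresin 1 with surgery and surgery, blue points with 95% intervals, and between surgery and control, orange points, which use the same surgery arrays. Intervals of Il1b, Tnf, Ccl2, Nlrp3, Lgr6, Rora, Alox12 and Alox15 include 0, those of Casp1, Tlr2 and Cbr2 lie below it and that of Gpr37 above it; an asterisk marks a mean level not above the olfactory receptor genes. The sign for Gfap turned with arrays scaled to a common median.

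Genes of Maresin 1 itself were read out next. Lgr6, its surface receptor, had log2 levels of 6.20, 6.18 and 6.42 after surgery and 6.44, 6.27 and 6.17 with Maresin 1 (difference 0.03, 95% interval -0.19 to 0.25). Rora, the nuclear receptor, stood at 9.59, 9.57 and 9.56 and at 9.68, 9.43 and 9.64 (difference 0.01, 95% interval -0.14 to 0.17). Both intervals include 0. The lipoxygenases Alox12 and Alox15, which start maresin synthesis, lay below the olfactory receptor level at differences of 0.03 and -0.02. Over the whole list of receptors and lipid enzymes, 24 of 37 were lower, with a median of -0.05, 3 higher (8.11%) and 4 lower (10.8%) without overlap, near the 4.79% and 8.2% of all genes. Gpr37, a receptor of oligodendrocytes and macrophages for the related mediator protectin D1, had log2 levels of 10.51, 10.19 and 10.35 after surgery and 10.56, 10.62 and 10.55 with Maresin 1. All Maresin 1 arrays lay above the surgery arrays (difference 0.23, SE 0.07, adjusted p = 0.859). Gpr37 is itself an oligodendrocyte gene, and the part of the oligodendrocyte values above in its difference was not tested. On the lower side stood the retinoid partner receptor Rxra (-0.25, with overlap), the soluble epoxide hydrolase Ephx2 (-0.18), the phospholipase Pla2g6 (-0.16) and the lipoxygenase Alox5 (-0.18), the last 3 without overlap.

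Noncoding RNAs held some of the widest differences. Malat1, an abundant RNA of nuclear speckles, had log2 levels of 11.35, 11.55 and 11.50 after surgery and 11.75, 11.80 and 12.04 with Maresin 1 (difference 0.40, SE 0.12), and Lncpint, a nuclear RNA that works with Polycomb, stood at 8.89, 9.16 and 8.99 and at 9.45, 9.33 and 9.76 (difference 0.50, SE 0.16). The operated groups did not overlap for either gene. Controls reached into both groups, at 11.79, 11.56 and 11.16 for Malat1 and 9.66, 9.69 and 8.98 for Lncpint. In the list of nuclear long noncoding RNAs 9 of 11 lay above zero, with a median of 0.14, while Norad, an RNA that works in the cytoplasm, differed by -0.10 without overlap. List scores were -0.232, -0.057 and -0.044 after surgery and 0.020, 0.007 and 0.020 with Maresin 1, and the controls ranged from -0.138 to 0.208. The median was 0.24 without Maresin 1 replicate 1.

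Small nucleolar RNAs, which guide chemical marks on ribosomal RNA, were lower for 39 of 56, with a median of -0.13. Of them 11 were lower at an unadjusted p under 0.05 (3.7% of all genes were) and 0 higher, but the counts without overlap, 4 lower (7.14%) and 3 higher (5.36%), stood near the 8.2% and 4.79% of all genes. Snord35b stood at log2 levels of 7.59, 7.58 and 7.39 after surgery, 6.58, 7.16 and 6.65 with Maresin 1 and 7.29, 7.63 and 7.56 in controls. It was 1.65-fold lower and shared the smallest adjusted p of all genes (difference -0.72, SE 0.14, adjusted p = 0.617). Snord35a stood at 7.45, 7.43 and 7.21 after surgery and 6.67, 7.13 and 6.40 with Maresin 1 (difference -0.63, SE 0.18), and Snord33 differed by -0.75 (SE 0.25) with overlap. Snord35a and Snord33 lie within the span of the ribosomal protein gene Rpl13a in the GRCm38.p6 gene table, and Rpl13a itself differed by 0.09 (SE 0.10) with overlap. Snora44 differed by -0.32 without overlap. List scores, at 0.101, 0.185 and -0.080 after surgery and -0.076, 0.060 and -0.177 with Maresin 1, overlapped, and the median was -0.04 without surgery replicate 2, -0.08 without Maresin 1 replicate 3 and -0.21 without surgery replicate 3.

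MicroRNA genes were added to the lists after their values had been seen. Of 306 measured genes 111 lay above the olfactory receptor level. Differences were above zero for 171, with a median of 0.02, and 30 (9.8%) were higher and 13 (4.25%) lower without overlap, against 4.79% and 8.2% of all genes. List scores were 0.002, -0.016 and -0.027 after surgery and -0.021, -0.028 and 0.060 with Maresin 1, so that replicate 3 alone stood high, and the median was -0.00 without it. Printed below are a mature sequence, from RefSeq with build GRCm38.p6, for each of the 5 genes with the smallest p among those above the olfactory receptor level and without overlap, since each microRNA finds its targets through the seed, bases 2 to 8, set in capitals.
mmu-miR-680: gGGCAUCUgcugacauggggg
mmu-miR-708-5p: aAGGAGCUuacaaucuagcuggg
mmu-miR-505-3p: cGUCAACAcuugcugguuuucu
mmu-miR-491-5p: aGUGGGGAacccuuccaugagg
mmu-miR-181b-5p: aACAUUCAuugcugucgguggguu
No seed is shared among these 5 sequences. Mir680-2 had log2 levels of 6.75, 6.76 and 6.96 after surgery and 7.11, 7.27 and 7.87 with Maresin 1 (difference 0.60, SE 0.22). Mir505 stood at 6.47, 6.59 and 6.58 and at 6.83, 6.87 and 7.42 (difference 0.49, SE 0.20). Mir181b-1, one of the copies that give the brain-abundant miR-181b, stood at 6.61, 6.75 and 6.69 and at 6.86, 6.97 and 7.27 (difference 0.35, SE 0.15). In each of them the third Maresin 1 array was the highest. The highest control stood at 7.33 for Mir680-2, 7.34 for Mir505 and 7.44 for Mir181b-1, above most Maresin 1 arrays. Mir708 stood at 5.69, 6.05 and 5.98 and at 6.25, 6.26 and 6.44 (difference 0.41, SE 0.15), while Tenm4, the gene whose span holds it, went the other way without overlap (-0.15, SE 0.07). Mir491 stood at 6.22, 6.49 and 6.61 and at 6.94, 6.93 and 6.94 (difference 0.49, SE 0.21), and its host Focad differed by 0.02. The probe sets do not tell a mature microRNA from its precursor or from the transcript that holds it.

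Genes of basic cell machinery leaned upward in part. Cytosolic ribosomal protein genes were above zero for 63 of 73, with a median of 0.08 and 15 higher without overlap (20.5%, against 4.79%), 0 lower, yet the median turned to -0.07 with arrays scaled to a common median, close to the -0.09 of all genes there. Rps27l, a ribosomal protein that p53 induces, stood at log2 levels of 7.85, 7.91 and 7.78 after surgery and 8.19, 8.26 and 8.15 with Maresin 1 (difference 0.36, SE 0.08). Rps19, a component of the small subunit, stood at 9.55, 9.57 and 9.38 and at 9.77, 9.76 and 9.75 (difference 0.26, SE 0.08). Both groups were tight for these genes, with no overlap. Over the list, surgery replicate 3 was the lowest array, with a score of -0.106 against 0.010 and 0.036 in the other surgery arrays and 0.022 to 0.100 with Maresin 1. Without it the median of the list was 0.03. Proteasome subunits were above zero for 25 of 38, at a median of 0.05 that turned to -0.08 with arrays scaled to a common median, and SR and hnRNP splicing factors for 22 of 30, at 0.04, which turned to -0.11 there and to -0.00 without normalization.

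Mitochondrial genes stayed near zero, at medians of 0.01 for ribosomal proteins of the organelle, 0.00 for respiratory chain subunits and 0.01 for protein import, each of which turned negative with arrays scaled to a common median. Among 79 respiratory chain genes Ndufs4, an assembly-critical subunit of complex I, stood highest by p, at log2 levels of 10.71, 10.71 and 10.62 after surgery and 10.88, 10.90 and 10.90 with Maresin 1 (difference 0.21, SE 0.05). Cox6a2, a muscle-type subunit of cytochrome oxidase also found in interneurons, lay on the other side at -0.25. The mitochondrial ribosomal list held 11 genes higher without overlap (14.9%, against 4.79% of all genes) and 0 lower (against 8.2%), led by Mrpl33 at 0.22 (SE 0.07).

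Responses that reach the brain through the blood were also listed. Glucocorticoid response genes had a median of -0.08, with 12 of 21 lower. Hif3a, a hypoxia-related factor induced by steroids, was set apart at log2 levels of 7.21, 7.21 and 7.08 after surgery and 6.85, 6.94 and 6.69 with Maresin 1 (difference -0.34, SE 0.09), and controls, at 7.14, 7.26 and 7.16, stood with surgery. Fkbp5, the chaperone most used as a readout of these steroids, differed by -0.17 without overlap, and the receptor Nr3c1 itself by 0.15, a sign that turned to -0.00 with arrays scaled to a common median. The list median ranged from -0.12 without surgery replicate 1 to 0.01 without Maresin 1 replicate 3, and was 0.00 without surgery replicate 2 or 3. Clock genes were lower for 13 of 17, at a median of -0.07 (-0.02 without surgery replicate 3 and -0.11 without surgery replicate 1), while the activator Arntl stood higher by 0.19 without overlap and its repressor Ciart lower, at -0.23. Targets of p53 had a median of -0.04, genes of the unfolded protein response -0.05 (-0.01 without surgery replicate 3 and -0.03 without Maresin 1 replicate 3) and heat shock genes -0.03, with 0 or 1 members each at an unadjusted p under 0.05.

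**Figure D5:**
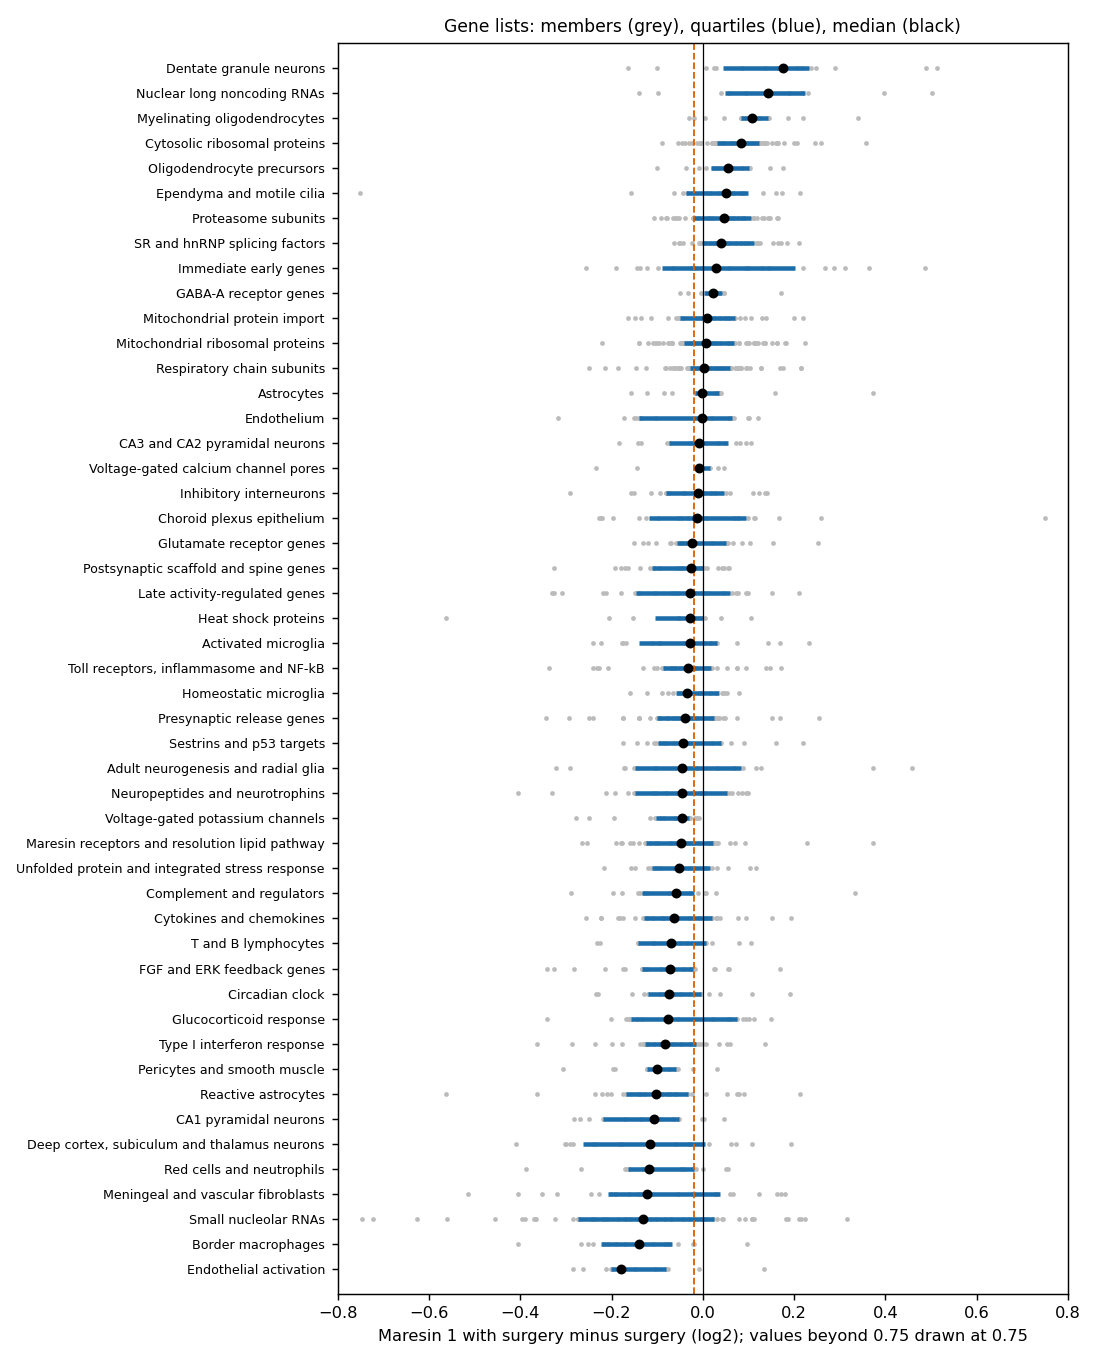
Log2 difference between Maresin 1 with surgery and surgery (horizontal axis) for the members of each gene list (grey points), with the quartiles (blue bar) and the median (black point); the dashed line marks the median of all genes, -0.02. Medians of dentate granule cells and nuclear long noncoding RNAs stood highest and those of endothelial activation and border macrophages lowest. The positive medians of oligodendrocyte, ribosomal, proteasome, splicing factor, mitochondrial, immediate early and GABA-A receptor genes turned negative with arrays scaled to a common median, where all genes stood at -0.09.

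The genes with the largest differences were led by Ttr, which encodes transthyretin of the choroid plexus. Its log2 levels were 6.66, 6.19 and 7.70 after surgery and 8.31, 8.34 and 7.77 with Maresin 1, a difference of 1.29 without overlap (SE 0.99, adjusted p = 0.890). Surgery replicate 3 came close to the Maresin 1 range, and controls stood at 7.55, 12.54 and 12.71. The SE pools the spread of all 3 groups, so the wide control levels of Ttr enter its SE and adjusted p. Other choroid plexus genes did not follow, as the list had 11 of 22 above zero, a median of -0.01 and Kl at 0.01, Folr1 at -0.03 and Sostdc1 at 0.08. Apol10a, of the apolipoprotein L family, stood at 5.52, 5.77 and 5.82 after surgery and 6.39, 6.20 and 6.48 with Maresin 1 (difference 0.65, SE 0.13), and shared the smallest adjusted p of 0.617, with controls at 6.05, 6.11 and 5.71. Tmem121b, a membrane protein gene of neurons, had the next smallest at 0.689, with log2 levels of 8.94, 8.89 and 8.90 after surgery, 8.64, 8.54 and 8.65 with Maresin 1 and 9.02, 9.12 and 9.0 in controls (difference -0.30, SE 0.06). The Maresin 1 arrays of Tmem121b lay below all 6 others. Further genes by p with a difference of at least 0.3 were, on the lower side, the synaptic adhesion gene Lrfn3 (-0.30), the cholecystokinin receptor Cckbr (-0.36), Galnt9 (-0.30), Fam189b (-0.33), Lsm11 of histone RNA processing (-0.34), Pdlim1 (-0.32) and Scube1 (-0.33). On the higher side stood Myt1, a zinc finger factor of the oligodendrocyte and neuronal lineages (0.34), Csmd3 (0.31), Rnft1 (0.31), Stoml3 (0.40), Htra4 (0.39), Eml5 (0.35) and Cep70 (0.32). Adjusted p was 0.859 for the 12 higher genes of this rule and 0.617 to 0.859 for the 12 lower ones.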

How the data were processed

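Hippocampal RNA of 9 mice or pools was measured on an Affymetrix mouse gene array. The deposited unit is intensity, a linear signal for each of 35556 probe sets, which the authors deposited after Affymetrix Expression Console, a tool named in the submitters' processing notes. The sources used here do not give its version, algorithm or centring, and 92 to 244 values per array were exactly 0. Unequal medians and curves show no common scaling, so quantile normalization was applied to the 9 arrays before taking log2(signal + 16). Fold changes are on that scale, which understates those of dim genes. Probe sets naming 1 gene (21218; 1881 named several and 12457 are not listed in the probe table of GEO's platform annotation) gave 18820 genes, each by the probe set with the highest mean where there were several (1386 genes). Gene identifiers of 21185 probe sets matched the RefSeq gene table.

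limma 3.58.1 in R 4.3.3 was fitted to all 9 arrays (3 group means, variance prior following the mean, no covariate), with Benjamini-Hochberg adjustment over all genes. Scripts were tested on simulated data with 50 genes changed per size, and 10 unchanged genes were called. Precision is limited by 3 arrays a group. p-values measure the spread between these arrays. The members, lists, rule and tests were chosen with earlier results of these data known. Lists are described by counts and medians only. Named genes were up to 12 per direction by p (difference of at least 0.3, level above the median gene, no overlap, without gene models, small RNA and olfactory receptor genes), up to 3 by p from each list, a set of 32 genes of inflammation, activity, glia and cell types, of which 1 is not analysed here, and the 5 largest differences without overlap per direction. Alternatives were other constants, normalizations, filters, priors, weights and array sets, the replicate number as a block, and each array left out. Arrays were not treated as pairs by the numbers in the titles. Deviations of same-numbered arrays correlated at 0.055, -0.019 and -0.114, within the -0.148 to 0.193 of differently numbered arrays. These few correlations cannot exclude a pairing.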

Additional observations from a re-analysis of the deposited data

How the results depend on the processing

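The count of genes past the adjusted threshold stayed at 0 under all 21 alternatives, with a smallest adjusted p of 0.0618 with arrays scaled to a common median, 0.139 without Maresin 1 replicate 2, and 0.994 with the replicate number as a block, which changed no call. The count at an unadjusted p under 0.05 moved from 1065 to 690 with arrays scaled to a common median, 161 without normalization and 1828 with array weights, and from 744 to 1652 when single arrays were left out. On the higher side 368 became 103, 132 and 653 under those 3 settings (254 to 593 with arrays left out), and on the lower side 697 became 29 without normalization and 1175 with weights (485 to 1059). Of 51 list medians 24 kept their sign in every alternative. With arrays scaled to a common median 10 list medians changed sign, and 8 did without normalization. Among these, the medians that lay further from 0 than the SD of their list scores within groups were those of cytokines and chemokines (0.0052) and of Toll receptors, inflammasome and NF-kB (0.0084) without normalization, and of cytosolic ribosomal proteins (-0.0734) and proteasome subunits (-0.0834) with arrays scaled to a common median. Of 159 genes printed with values, 18 changed sign with that scaling and 14 without normalization. Those whose difference had exceeded its SE were Gabra4 (-0.0073), Gfap (-0.0674), Gria1 (-0.1236, and -0.0177 without normalization) and Nr3c1 (-0.0037). The cause was not tested. That scaling also moved the median of all genes from -0.0191 to -0.0885. Of the printed genes 122 kept their sign in every alternative. Depth is not defined for arrays, and 3 arrays a group limit the precision.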

Other observations

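Genes at an unadjusted p under 0.05 differed by direction in level and length. Those higher with Maresin 1 had a median log2 level of 8.86 and a median gene span of 23.8 kb, with 86.1% above the olfactory receptor level, and those lower had 7.64, 13.5 kb and 71.9%, against 7.44, 18.2 kb and 70.8% of all genes. Spans are from the RefSeq gene table of GRCm38.p6. With all genes ordered by mean level and cut into 10 equal bins, the share above zero was 36.4% in the lowest bin, 31.2% in the third, 50.9% in the eighth and the ninth and 44% in the highest.

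Sntn, a gene of motile cilia, had the lowest difference of all genes, -0.94 (SE 0.62, adjusted p = 0.878). Its log2 levels were 7.89, 7.99 and 8.51 after surgery, 8.87, 6.55 and 6.14 with Maresin 1 and 7.77, 8.20 and 6.02 in controls, so that Maresin 1 replicate 1 was the highest of the 9 arrays. The list of ependyma and motile cilia, Sntn included, lay above zero for 11 of 16, at a median of 0.05 (0.01 to 0.11 with single arrays left out). Igf2, a growth factor of meninges and choroid plexus, differed by -0.40 (SE 0.37), with controls at 8.87, 10.60 and 10.79, whose spread enters that SE. Neuropeptide and neurotrophin genes were lower for 16 of 24 at a median of -0.05, with Nrn1, a secreted neurite growth factor, at -0.10 without overlap.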
